A study of Mus musculus with 9 samples.

Results

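To determine which signals to myeloid cells were transcribed by glioblastoma cells and by the astrocytes around them, RNA counts of 10 genes were followed in sorted co-cultures. The genes encode the myeloid growth factors Csf1 and Csf2, the cytokines Il6 and Lif, and the chemokines Ccl2, Ccl5, Ccl7, Cxcl1, Cxcl12 and Cx3cl1. They are known ligands of myeloid or stem-like cells, listed by name with earlier results of these data known, and all 10 of them were found among the 49315 gene IDs of the count table. The libraries came from SB28 cells, a mouse glioblastoma line that expresses green fluorescent protein and has a C57BL6 background, and from primary neonatal astrocytes of C57BL6 mito::mKate2 mice. In these mice a transgene driven by the ubiquitous CAG promoter places the red fluorescent protein mKate2 in mitochondria, so that an SB28 cell carrying mKate2 was taken to have received astrocyte mitochondria. Astrocytes and SB28 cells were kept together at equal numbers for 2 days in DMEM F12 with 2% FBS, 5% N2 supplement and 20 ng/ml EGF and FGF by the labels (the study's methods give other shares of serum and supplement), and were then sorted into astrocytes, SB28 cells without mKate2 (mKate2-) and SB28 cells with mKate2 (mKate2+), with 3 libraries each. All 9 libraries therefore came from co-culture, the astrocytes were grown from glial cultures of the subventricular zone, and libraries of either cell type grown alone were not analysed here. Libraries of a group came from distinct co-cultures, and the labels do not say which libraries shared a co-culture.

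As background, colony-stimulating factor 1 and granulocyte-macrophage colony-stimulating factor, the products of Csf1 and Csf2, keep macrophages and microglia alive and drive their growth. Chemokines act on receptors that couple to G proteins and direct the migration of cells: Ccl2 and Ccl7 recruit monocytes through Ccr2, Ccl5 acts on receptors that include Ccr1 and Ccr3, Cxcl1 attracts neutrophils through Cxcr2, and Cxcl12 holds haematopoietic cells through Cxcr4. Cx3cl1 is a membrane-bound chemokine, cleaved off by metalloproteases, whose receptor Cx3cr1 is a defining gene of microglia. Il6 and Lif act through receptors that share the signalling chain Il6st and activate STAT3. Glioblastoma is known for its large content of macrophages and microglia.

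The chemokine families are named for the spacing of the first cysteines of the mature protein, and that spacing is what sets the 6 chemokine genes apart at the sequence level. The following stretches of 30 coding bases, read from exon 2 of each gene in the mouse genome GRCm38 on the strand of the gene, carry those 2 cysteine codons in capitals. They are shown because they define the families whose levels are compared here. The codons are adjacent in the CC chemokines Ccl2, Ccl5 and Ccl7, separated by 1 codon in the CXC chemokines Cxcl1 and Cxcl12, and separated by 3 codons in Cx3cl1.
Ccl2, chr11:82036497-82036526, plus strand: ccactcaccTGCTGCtactcattcaccagc
Ccl5, chr11:83529227-83529256, minus strand: accactcccTGCTGCtttgcctacctctcc
Ccl7, chr11:82046529-82046558, plus strand: gcatccacaTGCTGCtatgtcaagaaacaa
Cxcl1, chr5:90891487-90891516, plus strand: gagctgcgcTGTcagTGCctgcagaccatg
Cxcl12, chr6:117171499-117171528, plus strand: agctaccgaTGCcccTGCcggttcttcgag
Cx3cl1, chr8:94778042-94778071, plus strand: atgacgaaaTGCgaaatcatgTGCgacaag

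Total counts per library were 24454561, 32707569 and 35135662 in astrocytes, 27187348, 35891589 and 29839630 in mKate2- SB28 cells and 36051914, 39287841 and 34175016 in mKate2+ SB28 cells (replicates 1, 2 and 3). Levels are given as CPM, counts scaled to a library total of 1000000, with the 3 replicates in that order, and are compared between genes only per kilobase of exonic length. At this depth a gene with a count of 0 could still be present at up to 0.0764 to 0.123 CPM, depending on the library, since 3 counts can be missed by chance. That limit and the intervals of low counts cover counting error only. In these bulk libraries, fewer cells of a type and less RNA per cell cannot be told apart.

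A pair of libraries stood apart from their own groups. Astrocyte replicate 3 lay 70.7 on average from the other astrocyte libraries (Euclidean distance of log2 CPM over 13450 genes), against 64.6 for replicate 1 and 57.5 for replicate 2, and held Sparcl1, a matrix protein of mature astrocytes, at 716 CPM where the others had 29.9 and 14.8. mKate2+ replicate 2 lay at least 46.1 from every other SB28 library. Where leaving out either library changed a call, the value without it stands beside the call, whereas Osmr, Il6st and Flt1 are given only over all libraries.

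The sort labels were checked against marker genes. Of 15 astrocyte markers, 14 were tested against SB28 cells and 11 were lower in both SB28 populations. Of all genes tested, 22.4% and 22.8% were lower in mKate2- and mKate2+ cells. Gfap, Aqp4, Slc1a2 and Fabp7 were tested only because of their astrocyte levels, which set their direction. Apoe, also among the lower markers, was at 264, 260 and 270 CPM in astrocytes and at most 3.22 CPM in SB28 cells. The summed level of the 15 markers was 1287, 1233 and 2644 CPM in the astrocyte libraries and 524 to 573 CPM in the SB28 libraries, in which the gap junction gene Gja1 led, at 241 to 284 CPM. Gfap, a defining astrocyte filament gene, was at 8.83, 3.42 and 19.4 CPM. The astrocyte libraries also held Olig1, a factor of the oligodendrocyte lineage, at 541, 241 and 304 CPM, compared with 1.12 to 6.43 CPM in SB28 cells, whereas the lineage gene Sox10 was at most 0.0611 CPM.

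RNA of one sorted cell type in the libraries of the other was estimated in both directions. For astrocyte RNA in SB28 cells, 79 genes were summed that exceeded 50 CPM in astrocytes and lay 100 or more times above their SB28 level. Their sum in the mKate2- libraries was 0.655%, 0.507% and 1.21% of the sum in astrocytes, and 0.709%, 0.339% and 0.728% in the mKate2+ libraries, as an upper limit on astrocyte RNA that the choice of genes itself holds near 1% or below. In the other direction, 0 of 4723 genes above 50 CPM in SB28 cells were 30 or more times their astrocyte level. The gene with the lowest relative level in astrocytes, the receptor gene Gpr149, was at 8.43%, 16.6% and 9.75% of its SB28 mean in astrocyte replicates 1, 2 and 3, and the 20 lowest genes had medians of 13.7%, 20.1% and 14.9%. Gpr149 sets an upper limit on SB28 RNA in the astrocyte libraries, on the assumption that SB28 cells there express it as the sorted SB28 cells do. Subtracting that share left the astrocyte mean of each tested gene of the 10 close to its measured mean, from 203 to 211 CPM for Csf1, from 26.2 to 29.0 CPM for Lif, from 90.6 to 89.5 CPM for Cx3cl1, from 39.2 to 37.1 CPM for Cxcl12 and from 1.87 to 1.95 CPM for Ccl2.

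Of the 10 genes, Csf1, Cx3cl1, Cxcl12 and Lif exceeded 1 CPM in every library, Ccl2 lay around 1 CPM, and the 5 genes Ccl5, Ccl7, Cxcl1, Csf2 and Il6 stayed below 1 CPM in all 9 libraries. The highest value of any of these 5 was 0.655 CPM. Of these, the 4 genes Ccl5, Cxcl1, Csf2 and Il6 had a count of 0 in at least 1 library. Per kilobase of exonic length, Csf1 led in all 3 groups, at 38.5 ± 9.55 CPM per kb in astrocytes, 26.8 ± 2.04 in mKate2- and 26.8 ± 3.38 in mKate2+ SB28 cells (mean ± SD, n = 3), and Cx3cl1 came next, at 23.0 ± 15.6, 23.4 ± 2.83 and 24.5 ± 3.08 CPM per kb. The ranges of these 2 genes overlapped in astrocytes and in mKate2+ cells and did not in mKate2- cells. Cxcl12 took rank 3 in SB28 cells, at 6.97 ± 1.33 and 7.20 ± 1.13 CPM per kb. Lif took rank 3 in astrocytes, at 6.03 ± 3.16 CPM per kb, where its range overlapped that of Cxcl12 at 4.79 ± 1.39 CPM per kb. In SB28 cells Lif took rank 4, at 2.10 ± 0.364 and 2.16 ± 0.486 CPM per kb, and Ccl2 took rank 5 in all 3 groups, at 1.64 ± 0.476, 1.07 ± 0.583 and 1.43 ± 0.386 CPM per kb. The remaining 5 genes lay between 0.0233 and 0.539 CPM per kb in the means of the groups, and most of their neighbours in that order overlapped.

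**Figure D1:**
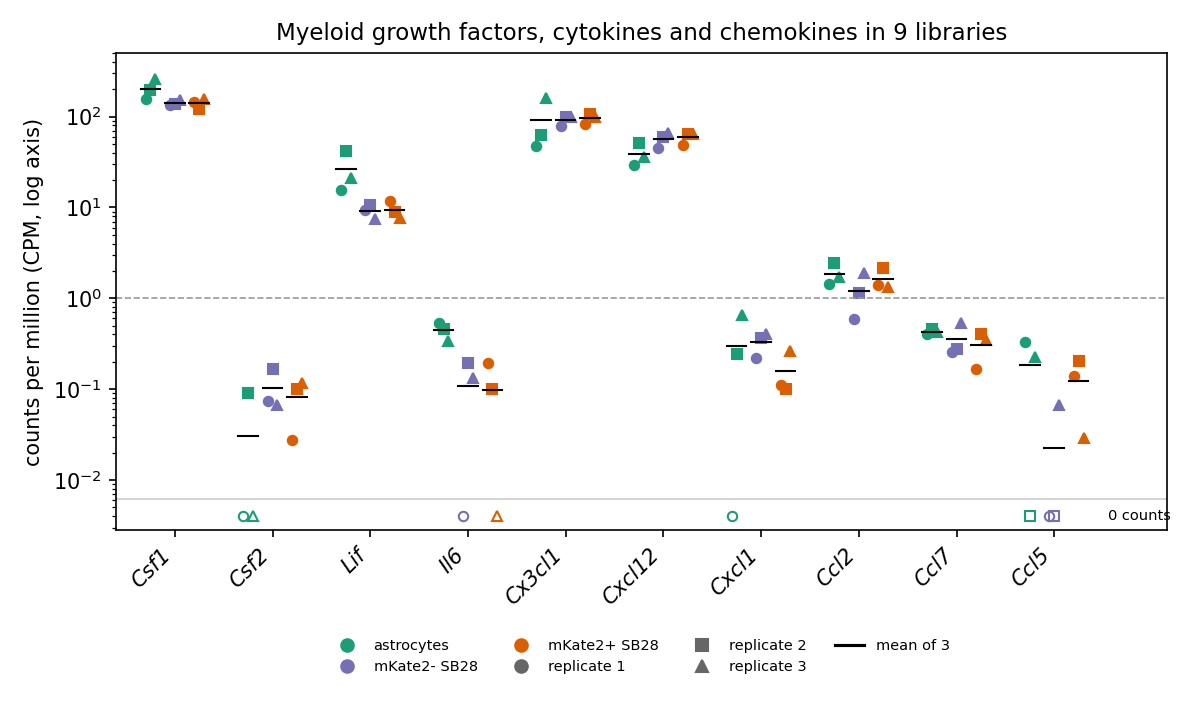
Level of each of the 10 genes in each of the 9 libraries, in CPM on a log axis, with colours for the sorted populations, symbols for the replicates and a black line for the mean of 3; open symbols under the grey line are counts of 0, and the dashed line marks 1 CPM. Csf1, Cx3cl1, Cxcl12 and Lif lie above 1 CPM in all libraries. Lif, Il6 and Csf1 lie higher in all 3 astrocyte libraries than in any SB28 library, as do 21.7% of 28059 genes with any count.

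The mKate2+ and mKate2- SB28 cells were sorted apart by mKate2 fluorescence, which was taken to mark receipt of astrocyte mitochondria. This comparison asks whether cells with that mark transcribed different myeloid signals. No difference between these populations was found in any of the 10 genes. Of the 11854 genes tested over the 6 SB28 libraries with edgeR's quasi-likelihood test, 0 had an adjusted p below 0.05, a background of 0%. By DESeq2 it was also 0, whereas 241 genes in edgeR (2.03%) and 317 in DESeq2 had an unadjusted p below 0.05, and 23 genes (0.194%) met the study's criterion for genes higher in mKate2+ cells, a fold above 1.5 with an unadjusted p below 0.05 and a count above 50 (taken here as the mean). None of the 5 genes tested (Csf1, Cx3cl1, Cxcl12, Lif and Ccl2) met any of these criteria in edgeR, and the CPM ranges of the 2 populations overlapped for all 10 genes, where 7.32% of 25423 genes with a count had ranges that did not.

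The intervals of the differences show how large a change could have been missed. Csf1 in mKate2+ cells was at 1.03 times its mKate2- level, or 0.046 on the log2 scale, with a standard error (SE) of 0.092 and a 95% interval of -0.17 to 0.26. Cx3cl1 differed by 0.13 (interval -0.20 to 0.45), Cxcl12 by 0.10 (interval -0.30 to 0.51) and Lif by 0.090 (interval -0.37 to 0.55) on the log2 scale. For Ccl2 the interval was widest, from -0.49 to 1.48 around a log2 fold change of 0.49 (SE 0.43, adjusted p = 0.923 in edgeR), and its counts per SB28 library were only 16 to 84. Without mKate2+ replicate 2 its log2 fold change was 0.19, with the gene length trend removed it was 0.28, and it ranged from 0.18 to 0.95 with single libraries left out. The adjusted p values of the other 4 genes were between 0.931 and 0.952. Without mKate2+ replicate 2, Cxcl12 and Cx3cl1 were at -0.023 and -0.015, so that the sign of these small differences changed without that library.

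**Figure D2:**
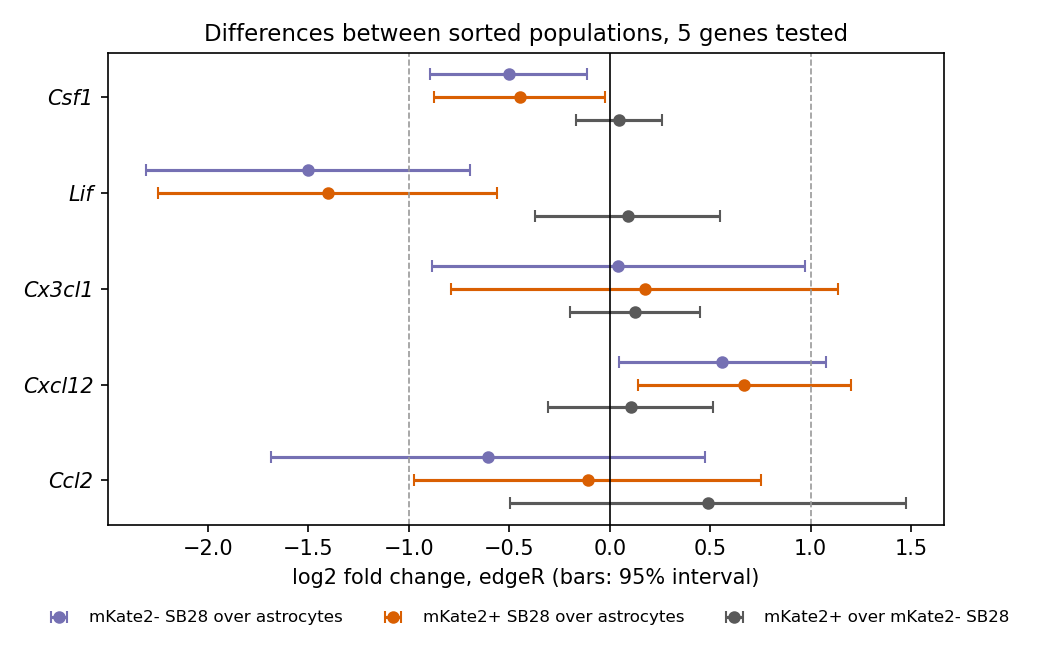
Fitted log2 fold changes (points) with 95% intervals (bars) from edgeR for the 5 genes above the filter on low counts, for both SB28 populations over astrocytes and for mKate2+ over mKate2- SB28 cells; dashed lines mark a log2 fold change of 1 in either direction. Lif lies below -1 in both comparisons with astrocytes, and the intervals of mKate2+ over mKate2- cells include 0 for all 5 genes.

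Both cytokines were higher in every astrocyte library than in any SB28 library, and Lif was the one abundant enough to be tested. Lif, leukaemia inhibitory factor, maintains stem-like states and acts on macrophages and glia through Lifr and Il6st (gene ENSMUSG00000034394, chr11:4257557-4272514, plus strand). It was at 15.7, 41.8 and 21.3 CPM in astrocytes, at 9.34, 10.6 and 7.44 CPM in mKate2- SB28 cells and at 11.7, 8.86 and 7.61 CPM in mKate2+ SB28 cells. Astrocyte replicate 2 was the highest, and the ranges of the cell types did not overlap. In edgeR, Lif was 2.83-fold lower in mKate2- cells than in astrocytes (log2 fold change -1.50, SE 0.35, adjusted p = 0.00635) and 2.64-fold lower in mKate2+ cells (log2 fold change -1.40, SE 0.36, adjusted p = 0.0116). Calls against astrocytes needed both an adjusted p below 0.05 and a log2 fold change of more than 1 in size. Lif was the only one of the 5 genes tested that was called, in both comparisons, where 22.4% of 13356 genes were called lower and 11.5% higher in mKate2- cells, and 22.8% of 13342 genes were called lower and 12.2% higher in mKate2+ cells. A count of 1 lower gene among 5 is near these backgrounds. The comparisons share the 3 astrocyte libraries and are not independent of each other. Without astrocyte replicate 2, the log2 fold change was -1.02 for mKate2- and -0.92 for mKate2+ cells, and the latter was no longer past the fold threshold.

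Il6, a cytokine of fever and acute inflammation, was close to the limit of detection (gene ENSMUSG00000025746, chr5:30013114-30019981, plus strand). Its level was 0.532, 0.459 and 0.342 CPM in astrocytes, 0, 0.195 and 0.134 CPM in mKate2- and 0.194, 0.102 and 0 CPM in mKate2+ SB28 cells, from counts of 13, 15 and 12 in astrocytes and of 0 to 7 in SB28 cells. The astrocyte libraries were all higher than the SB28 libraries. Pooled over the 3 libraries of a group, the level was 0.433 CPM in astrocytes (exact Poisson 95% interval 0.310 to 0.590), 0.118 CPM in mKate2- cells (0.0591 to 0.212) and 0.100 CPM in mKate2+ cells (0.0501 to 0.180). Il6 did not pass the filter of 1 CPM in 2 libraries. Under edgeR's less strict filter, its log2 fold change against astrocytes was -1.87 in mKate2- cells (adjusted p = 0.0654) and -2.01 in mKate2+ cells (adjusted p = 0.0635), neither of which passed the threshold.

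The growth factor Csf1, the main survival factor of microglia and macrophages, was the most abundant of the 10 genes (gene ENSMUSG00000014599, chr3:107741048-107760469, minus strand). It was at 158, 195 and 257 CPM in astrocytes, 134, 137 and 154 CPM in mKate2- and 146, 122 and 157 CPM in mKate2+ SB28 cells. The lowest astrocyte library and the highest mKate2+ library were almost level, at 157.6 and 156.7 CPM, and the ranges did not overlap. Csf1 was 1.42-fold lower in mKate2- cells than in astrocytes (log2 fold change -0.50, SE 0.17), which passed an adjusted p of 0.05 in edgeR (0.0309) and not the fold threshold, and 1.36-fold lower in mKate2+ cells (log2 fold change -0.45, SE 0.18, adjusted p = 0.0661). The pass in mKate2- cells was lost without mKate2- replicate 1, 2 or 3 (adjusted p = 0.105, 0.0951 and 0.0616 in edgeR). Without astrocyte replicate 3 the log2 fold changes were -0.31 and -0.27. Of the 10 genes, Lif, Il6 and Csf1 were lower in all 6 SB28 than in all 3 astrocyte libraries and 0 were higher in all 6, whereas of 28059 genes with any count 21.7% were lower and 14% higher in that way.

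Csf2, whose product drives the growth of granulocytes and macrophages, was barely detected (gene ENSMUSG00000018916, chr11:54247271-54249667, minus strand). It had 0, 3 and 0 counts in astrocytes, 2, 6 and 2 counts in mKate2- and 1, 4 and 4 counts in mKate2+ SB28 cells, and the populations overlapped. The pooled level was 0.0325 CPM in astrocytes (exact Poisson 95% interval 0.00670 to 0.0950), 0.108 CPM in mKate2- cells (0.0516 to 0.198) and 0.0822 CPM in mKate2+ cells (0.0376 to 0.156). These counts are uncertain, because 96 exonic bases of Csf2 overlap the antisense gene Gm12223 and the sources used here do not state whether reads were counted by strand.

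The membrane-bound chemokine Cx3cl1, or fractalkine, was abundant in both cell types (gene ENSMUSG00000031778, chr8:94772009-94782427, plus strand). It was at 47.5, 63.3 and 161 CPM in astrocytes, 78.9, 98.7 and 97.7 CPM in mKate2- and 83.5, 108 and 97.7 CPM in mKate2+ SB28 cells. Astrocyte replicate 3 was the highest of all libraries and the other 2 astrocyte libraries the lowest, so the groups overlapped. The log2 fold change against astrocytes was 0.042 in mKate2- cells (SE 0.40, adjusted p = 0.934 in edgeR) and 0.17 in mKate2+ cells (SE 0.41, adjusted p = 0.734), with 95% intervals of -0.89 to 0.97 and -0.79 to 1.14. Without astrocyte replicate 3 it was 0.73 in mKate2- cells (adjusted p = 0.00359) and 0.85 in mKate2+ cells (adjusted p = 0.00734), both under the fold threshold. Without astrocyte replicate 1 it was -0.27 and -0.14, and without replicate 2 -0.18 and -0.044.

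Cxcl12, which retains haematopoietic cells and guides migrating neural progenitors, had a higher mean level in SB28 cells than in astrocytes (gene ENSMUSG00000061353, chr6:117168535-117181367, plus strand). It was at 29.6, 51.7 and 36.1 CPM in astrocytes, 44.9, 59.9 and 66.2 CPM in mKate2- and 48.2, 64.8 and 63.7 CPM in mKate2+ SB28 cells. The highest astrocyte library, replicate 2, lay within the SB28 range. In edgeR, the log2 fold change against astrocytes was 0.56 in mKate2- cells (SE 0.22, adjusted p = 0.0569) and 0.67 in mKate2+ cells (SE 0.23, adjusted p = 0.0355), so that the difference in mKate2+ cells, 1.59-fold, passed the threshold of p and not that of the fold. That pass was lost with upper-quartile normalization (adjusted p = 0.0618) and without astrocyte replicate 1 or 3 or mKate2+ replicate 2 or 3 (0.0949, 0.0916, 0.101 and 0.0982). In mKate2- cells the adjusted p of Cxcl12 ranged from 0.0139 to 0.184 over the alternatives, below 0.05 in 7 of 14.

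**Figure D3:**
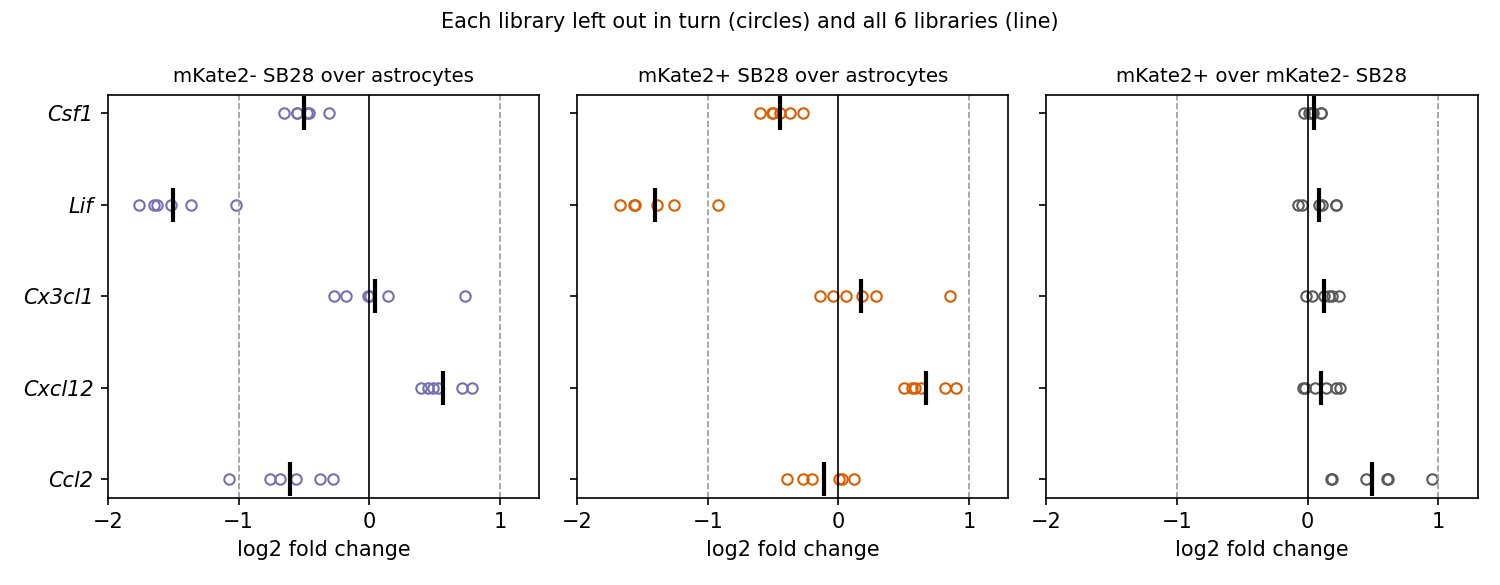
Log2 fold change of the 5 genes tested with all 6 libraries of a comparison (black line) and with each library left out in turn (circles), for the 3 comparisons; dashed lines mark 1 in either direction. Cx3cl1 over astrocytes moved from 0.042 to 0.73 in mKate2- cells and from 0.17 to 0.85 in mKate2+ cells without astrocyte replicate 3, and Lif over astrocytes stayed below 0 with any 1 library left out.

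Ccl2 and Ccl7, neighbouring genes whose products recruit monocytes, were transcribed at low levels (Ccl2, ENSMUSG00000035385, chr11:82035571-82037453; Ccl7, ENSMUSG00000035373, chr11:82045712-82047525; both on the plus strand). Ccl2 was at 1.43, 2.48 and 1.71 CPM in astrocytes, 0.589, 1.14 and 1.91 CPM in mKate2- and 1.41, 2.14 and 1.35 CPM in mKate2+ SB28 cells, and the 3 groups overlapped. Its log2 fold change against astrocytes was -0.61 in mKate2- cells (SE 0.46, adjusted p = 0.285 in edgeR) and -0.11 in mKate2+ cells (SE 0.37, adjusted p = 0.810), with 95% intervals of -1.68 to 0.47 and -0.97 to 0.75. Ccl7 had 6 to 16 counts in each library, and its pooled level was 0.433 CPM in astrocytes (exact Poisson 95% interval 0.310 to 0.590), 0.355 CPM in mKate2- cells (0.244 to 0.499) and 0.310 CPM in mKate2+ cells (0.215 to 0.434).

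Cxcl1 and Ccl5, which attract neutrophils and T cells, were at the edge of detection (Cxcl1, ENSMUSG00000029380, chr5:90891241-90893115, plus strand; Ccl5, ENSMUSG00000035042, chr11:83525778-83530518, minus strand). Cxcl1 was at 0, 0.245 and 0.655 CPM in astrocytes, 0.221, 0.362 and 0.402 CPM in mKate2- and 0.111, 0.102 and 0.263 CPM in mKate2+ SB28 cells. Ccl5 was at 0.327, 0 and 0.228 CPM in astrocytes, 0, 0 and 0.0670 CPM in mKate2- and 0.139, 0.204 and 0.0293 CPM in mKate2+ SB28 cells. For both genes the 3 groups overlapped. Under no filter on low counts, none of Ccl5, Ccl7, Cxcl1, Csf2 and Il6 had an adjusted p below 0.05 in any comparison, and the smallest was 0.125, of Il6 in mKate2+ cells against astrocytes.

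Among the 10 genes were several whose RNA is known from other cells to be unstable, and the letters of their 3' untranslated regions (UTRs) differed in AU-rich elements. The nonamer ATTTATTTA, a core of such elements, was searched on the sense strand of 1 transcript a gene, counting overlapping matches. It was found 5 times in the UTR of Csf2 and 2 times in that of Cxcl1, and not in those of the other 8 genes. Among all 20026 genes with a UTR of at least 50 bases, 5.65% held it, and among genes whose UTR was of like length, within 25%, 1.49% held it for Csf2 and 2.93% for Cxcl1. The first match of each is shown with the nonamer in capitals, as the 2 genes that carry it were both below 1 CPM in every library.
Csf2, chr11:54247359-54247388, minus strand, exon 4: ggaccattatATTTATTTAtatatttatat
Cxcl1, chr5:90892601-90892630, plus strand, exon 4: tgagggtcctATTTATTTAtgtatttattt
The shorter element ATTTA occurred at 28.4 per kb of UTR in Csf2, 14.1 in Il6 and 11.8 in Cxcl1, compared with a median of 1.2 over all genes, and at 4.60 in Ccl7, 3.64 in Ccl2, 2.20 in Lif, 1.90 in Csf1, 0.771 in Cxcl12, 0.535 in Cx3cl1 and 0 in Ccl5. The 3 densest UTRs belonged to genes below 1 CPM, whereas Ccl5, also below 1 CPM, held none and Ccl7 lay between. The 2 sparsest above 0 belonged to abundant genes. With only 10 genes, chosen by name, a relation of this density to level was not tested. A match is a description of the sequence, and RNA decay was not measured. Of 10 genes encoding proteins that bind or cut such RNAs, all were tested, 1 was higher and 1 was lower in each SB28 population, where 33.9% and 35% of all genes were called in either direction, and their median log2 fold change was 0.38 in mKate2- and 0.22 in mKate2+ cells against -0.038 and -0.018 over all genes tested. Hnrnpd, which encodes the AU-binding protein AUF1, was at 109, 94.6 and 95.4 CPM in astrocytes and at 180 to 227 CPM in SB28 cells (log2 fold change 1.04 and 1.17, adjusted p = 0.000300 and 0.000177 in edgeR). In mKate2- cells its value fell under the fold threshold without astrocyte replicate 2 (0.98), astrocyte replicate 3 (0.996) or mKate2- replicate 3 (0.96), with upper-quartile normalization (0.95) and with the gene length trend removed (0.99). Zfp36l1, which promotes decay of such RNAs, was at 43.2, 58.0 and 139 CPM in astrocytes and at 16.7 to 23.6 CPM in SB28 cells (log2 fold change -1.85 and -1.95), or -1.21 and -1.32 without astrocyte replicate 3. Its counts and those of Hnrnpd are uncertain, as both overlap another gene on the opposite strand. The most abundant gene of the list, Zfp36l2, a relative of Zfp36l1, was at 265 to 308 CPM in astrocytes and 352 to 454 CPM in SB28 cells, under the fold threshold (0.64 in both).

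Several of these genes are classical targets of NF-κB, the inflammatory transcription factor, and their promoters were searched for the letters GGGNNTTTCC on both strands (GGAAANNCCC on the strand of the gene for the reverse). Promoters were taken from RefSeq on build GRCm38.p6, from 250 bases before to 50 bases after the gene start, which matched 7 of the 10 genes, and those of Ccl2, Ccl5 and Ccl7 were not used here. Matches stood in 3 of the 7, those of Cxcl1, Csf1 and Il6, and in 1.63% of 32851 promoters. The matched stretches are shown with the motif in capitals, written on the strand of the gene, because they occur in genes at both ends of the range of levels.
Cxcl1, chr5:90891146-90891175, plus strand, 89 bases before the start: ccggttgcagGGAAACACCCtgtactccgg
Cxcl1, chr5:90891164-90891193, plus strand, 71 bases before the start: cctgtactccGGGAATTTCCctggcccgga
Csf1, chr3:107760604-107760633, minus strand, 154 bases before the start: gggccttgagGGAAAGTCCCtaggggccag
Il6, chr5:30013060-30013089, plus strand, 44 bases before the start: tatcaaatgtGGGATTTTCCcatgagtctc
A match does not show that a factor was bound. Csf1 with 1 match was the most abundant of the 10 genes, and Cxcl1 with 2 matches and Il6 with 1 were below 1 CPM in all libraries.

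The machinery of NF-κB itself was transcribed in both cell types. Of 24 genes of that pathway, 23 were tested, and 5 were higher and 2 were lower in both SB28 populations than in astrocytes, 30.4% of those tested, where 33.9% and 35% of all genes were called. Their median log2 fold change was 0.35 in mKate2- and 0.43 in mKate2+ cells. Tlr4, the receptor of bacterial lipopolysaccharide, was at 11.5, 26.0 and 19.6 CPM in astrocytes and at 54.1 to 68.0 CPM in SB28 cells (log2 fold change 1.66 and 1.64). The interleukin-1 receptor gene Il1r1 was at 9.41, 15.2 and 31.2 CPM in astrocytes, with every SB28 library at 38.2 CPM or above (1.43 and 1.33), and in mKate2+ cells its adjusted p was 0.0685 in edgeR without astrocyte replicate 2. Nfkb1, which encodes the p50 subunit, was at 57.9 to 70.6 CPM in astrocytes and 132 to 162 CPM in SB28 cells (1.28 and 1.27).

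The 2 lower genes of the pathway list were the adhesion molecule gene Icam1 and Bcl3. Both passed the filter on low counts only through the astrocyte libraries, which set their direction. Icam1, which holds leukocytes at a cell surface, was at 7.89, 7.28 and 14.0 CPM in astrocytes and at 0.0368 to 0.235 CPM in SB28 cells (log2 fold change -6.29 in mKate2- and -6.23 in mKate2+ cells), or -7.16 in mKate2- cells without mKate2- replicate 3. Bcl3, a nuclear regulator of p50, was at 2.86, 2.84 and 12.6 CPM and at 0.111 to 0.335 CPM (-4.44 and -4.76), or -3.36 and -3.69 without astrocyte replicate 3. Both overlap antisense genes, so their counts are uncertain. The most abundant gene of the list, the adhesion molecule gene Vcam1, was at 405 to 502 CPM in astrocytes and 211 to 263 CPM in SB28 cells, under the fold threshold (-0.90 and -0.84), and shares 61 exonic bases with the antisense gene Gm43109. In mKate2+ against mKate2- cells, 0 of 21 genes tested were called and 1 had an unadjusted p below 0.05.

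Lif and Il6 signal through JAK kinases and STAT3, and the 16 genes of that pathway were all tested. One was higher and 5 were lower in mKate2- cells, and 2 were higher and 5 were lower in mKate2+ cells, 37.5% and 43.8% of the list against 33.9% and 35% of all genes tested, with medians of -0.081 and -0.12 on the log2 scale. Cebpd, a STAT3 target that encodes a transcription factor of the acute phase response, was at 56.7, 61.2 and 70.8 CPM in astrocytes and 4.97 to 5.80 CPM in SB28 cells (log2 fold change -3.45 and -3.52). The STAT5 target Cish was at 12.5, 10.5 and 13.4 CPM and at 3.27 to 4.97 CPM (-1.53 and -1.38), and Stat5a at 16.2, 13.5 and 27.2 CPM and at 5.46 to 7.97 CPM (-1.46 and -1.53). Fosl1, which encodes the AP-1 subunit Fra-1, was at 79.7, 76.9 and 47.7 CPM in astrocytes and 144 to 169 CPM in SB28 cells (1.20 and 1.28), or 0.99 in mKate2- cells without astrocyte replicate 3. Socs1, an inhibitor of JAK kinases, was at 21.8, 15.2 and 10.5 CPM in astrocytes and 28.9 to 34.1 CPM in mKate2+ cells (1.04), and was under the fold threshold without astrocyte replicate 2 (0.99), astrocyte replicate 3 (0.79) or mKate2+ replicate 2 (0.93) and with upper-quartile normalization (0.94). Cebpd, Cish, Stat5a and Fosl1 each overlap another gene, and their counts are uncertain to that extent. Jak1, the most abundant gene of the list, was at 124 to 214 CPM in astrocytes and 144 to 193 CPM in SB28 cells.

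**Figure D4:**
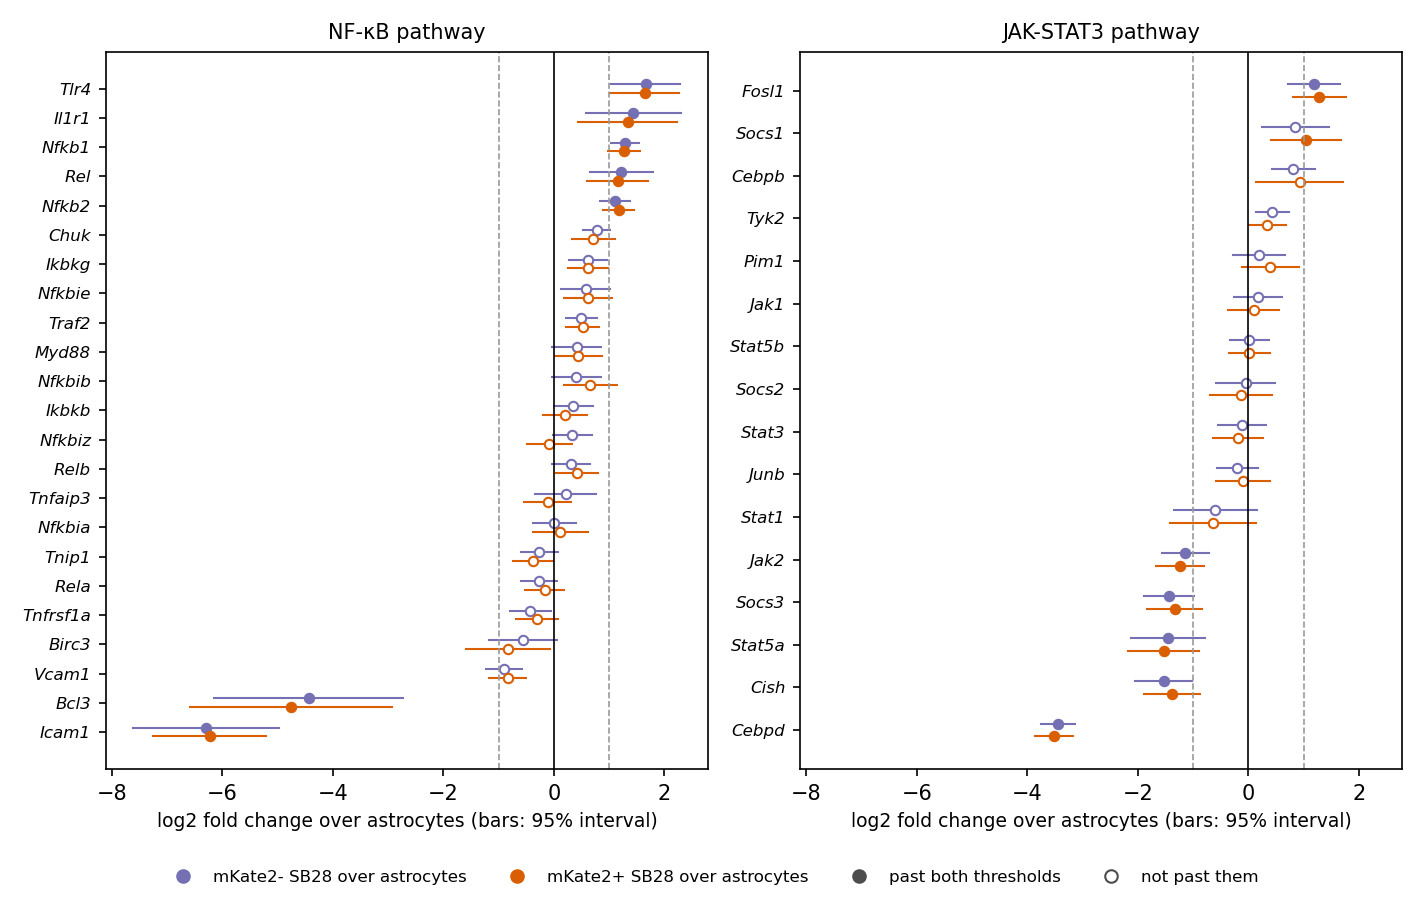
Log2 fold changes over astrocytes with 95% intervals for the tested genes of the NF-κB list (left, 23 genes) and the JAK-STAT3 list (right, 16 genes) in mKate2- and mKate2+ SB28 cells; filled points passed an adjusted p of 0.05 and an absolute log2 fold change of 1. Icam1 (-6.29 and -6.23) and Cebpd (-3.45 and -3.52) are the lowest of their lists.

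The receptors of these ligands were then examined in the same libraries. Most of those typical of myeloid cells were below 1 CPM in all libraries, whereas Csf2ra was above that in astrocytes. Ccr2, the receptor of Ccl2 and Ccl7, had 0 counts in all 9 libraries. Cx3cr1 and Cxcr2 had counts in astrocyte replicate 1 alone (0.0409 CPM each), Ccr1 in astrocyte replicate 2 alone (0.122 CPM), and Ccr3 in mKate2+ replicate 2 alone (0.0255 CPM). Of the scavenging receptors, Ackr1 was at 0.164 CPM in astrocyte replicate 1 and Ackr2 at 0.0509 CPM in mKate2+ replicate 2, with 0 counts elsewhere. Csf1r, the receptor of Csf1, was at 0.123, 0.795 and 0.171 CPM in astrocytes and at 0 to 0.221 CPM in SB28 cells, in counts that are uncertain because 873 exonic bases overlap Hmgxb3. The shared chain of the Csf2 receptor, Csf2rb, and its paralog Csf2rb2 were at or below 0.153 and 0.275 CPM, with both of these highest values in astrocyte replicate 2.

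The receptors of Cxcl12 were present, and the cell types differed in Cxcr4. Cxcr4, which signals the migration of cells towards Cxcl12, was at 5.03, 10.5 and 29.5 CPM in astrocytes and at 0.134 to 0.956 CPM in SB28 cells. Its log2 fold change was -4.91 in mKate2- cells (SE 0.84, adjusted p = 0.00150 in edgeR) and -4.70 in mKate2+ cells (SE 0.69, adjusted p = 0.000873), or -3.99 and -3.79 without astrocyte replicate 3 and -5.75 in mKate2- cells without mKate2- replicate 1. Ackr3, which binds and removes Cxcl12, was at 14.0, 19.5 and 9.39 CPM in astrocytes, 11.3, 20.8 and 13.3 CPM in mKate2- and 13.3, 16.2 and 11.6 CPM in mKate2+ SB28 cells (log2 fold change 0.10 with SE 0.32 and 0.02 with SE 0.29), and the groups overlapped. Of the 10 chemokine receptors listed, 2 were tested and 1 was called, lower in both SB28 populations, where 22.4% and 22.8% of all genes tested were lower. The called gene, Cxcr4, passed the filter on low counts only through the astrocyte libraries, which set its direction.

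Of 12 cytokine receptors listed, 6 were tested and 4 were lower in both SB28 populations, where 22.4% and 22.8% of all genes tested were lower. Among these 4, Csf2ra passed the filter on low counts only through the astrocyte libraries, which set its direction. Over all 6 tested, the median log2 fold change was -1.61 in mKate2- and -1.68 in mKate2+ cells. Il6st, the signalling chain shared by Il6 and Lif, was at 88.4, 106 and 176 CPM in astrocytes and 146 to 177 CPM in SB28 cells (log2 fold change 0.44 and 0.39, adjusted p = 0.133 and 0.187 in edgeR). The chains that bind the ligands were lower in SB28 cells. Il6ra was at 76.7, 77.0 and 99.7 CPM in astrocytes and 15.1 to 32.9 CPM in SB28 cells (-1.56 and -1.82), in counts that may hold reads of the antisense gene Gm42809. Il11ra1, which has near-identical copies in the mouse genome that make its counts uncertain, was at 29.4 to 40.3 CPM and 10.9 to 12.4 CPM (-1.67 and -1.55). Lifr was at 1.31, 3.00 and 11.1 CPM in astrocytes and 0.468 to 1.32 CPM in SB28 cells (-2.50 with SE 0.77 and -2.63 with SE 0.78, adjusted p = 0.0226 and 0.0207), and the ranges overlapped.

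The call on Lifr depended on single libraries. Without astrocyte replicate 3 its log2 fold change was -1.28 in mKate2- cells (adjusted p = 0.0537 in edgeR) and -1.41 in mKate2+ cells. Without mKate2- replicate 2 or 3 its adjusted p was 0.0818 or 0.0729, and without mKate2+ replicate 2 or 3 it was 0.0611 or 0.0693. With replicate number as a block, its call in mKate2+ cells was also lost (-2.13, adjusted p = 0.0537 in edgeR). Csf2ra, the chain that binds Csf2, was at 9.53, 7.83 and 9.90 CPM in astrocytes and at 0.0368 to 0.305 CPM in SB28 cells (-6.10 with SE 0.45 and -5.46 with SE 0.45). Osmr, of the oncostatin M receptor, was at 2.29, 8.81 and 49.7 CPM in astrocytes and 8.76 to 13.5 CPM in SB28 cells and was not called. Kit was at 7.51 CPM in astrocyte replicate 3 and at most 0.0293 CPM elsewhere, Flt3 was at most 0.441 CPM, and Csf3r had a count in mKate2+ replicate 1 alone.

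**Figure D5:**
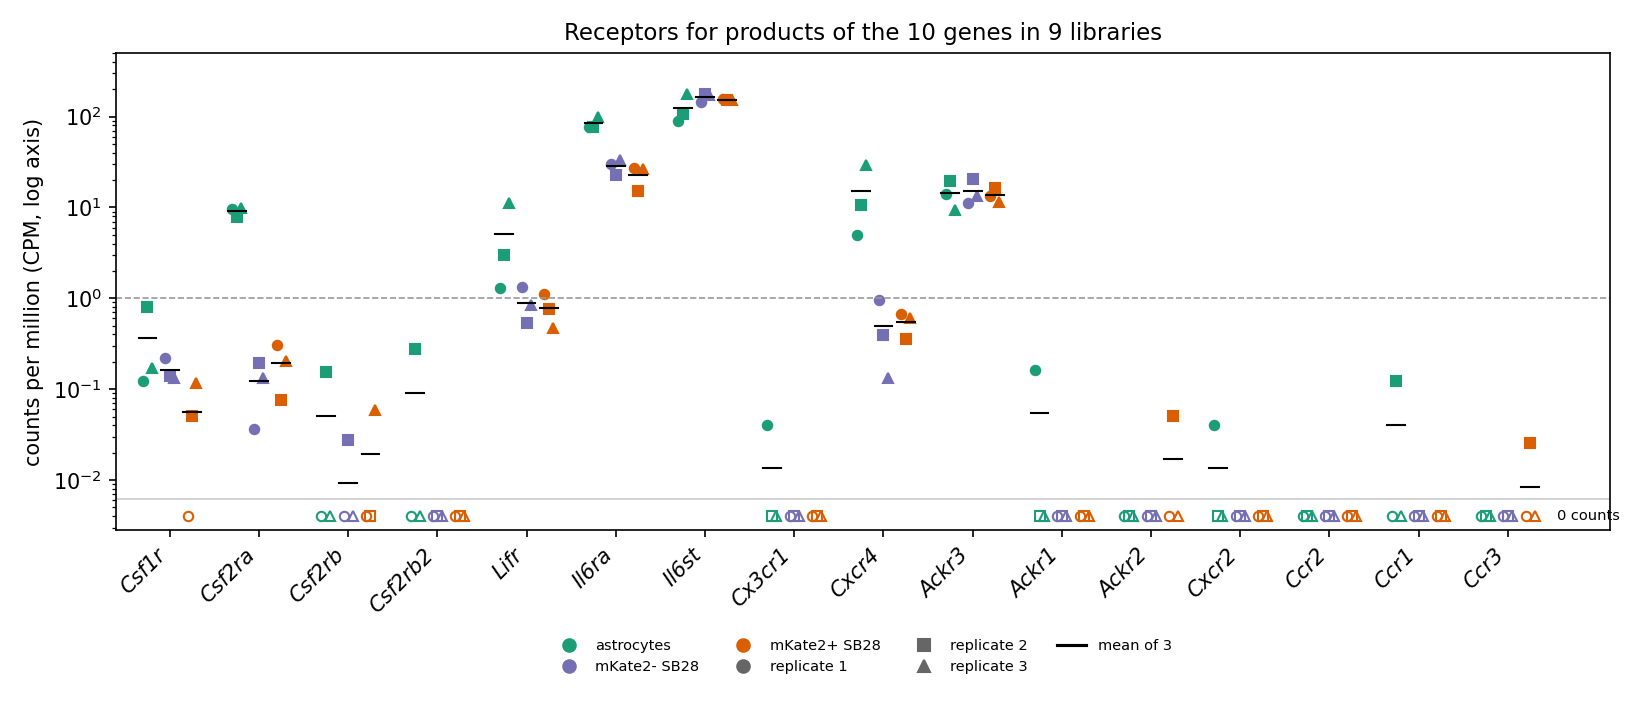
Level of receptors that bind the products of the 10 genes, in each library, in CPM on a log axis, with colours, symbols and lines as in the plot of the 10 genes by library and open symbols for counts of 0. Il6ra, Csf2ra and Cxcr4 lie higher in all 3 astrocyte libraries than in any SB28 library, as do 21.7% of 28059 genes with any count. Il6st and Ackr3 overlap between the cell types, and Ccr2 has a count of 0 in all 9 libraries.

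Markers of microglia and macrophages were likewise scarce. Of 20 microglia and macrophage markers, 16 were at or below 1 CPM in all 9 libraries, among them the defining genes Cx3cr1, Csf1r, Aif1, Itgam, Ptprc, Spi1 and Trem2. The summed level of the list was 58.4, 57.1 and 39.2 CPM in astrocytes and 51.0 to 65.4 CPM in SB28 cells, of which Tmem119 alone made up 24.8 to 39.1 CPM and 47.3 to 61.1 CPM. Cd68, a lysosomal gene, was at 15.7, 17.9 and 6.69 CPM in astrocytes and 1.54 to 3.54 CPM in SB28 cells, P2ry12 was at 1.06, 2.54 and 0.484 CPM in astrocytes and at most 0.0555 CPM in SB28 cells, and Lyz2 reached 7.15 CPM in astrocyte replicate 2, where Csf1r, Csf2rb, Csf2rb2 and Lif were also highest among the astrocyte libraries. The part of these cells in the level of Lif was not tested. Of 3 myeloid markers tested, 2 were lower in both SB28 populations, where 22.4% and 22.8% of all genes tested were lower. P2ry12 passed the filter on low counts only through the astrocyte libraries. Its direction was thus set by the filter, and the count cannot be compared with these shares.

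Markers of further cell types were counted in the same way. Of all genes tested, 22.4% were called lower and 11.5% higher in mKate2- cells, and 22.8% lower and 12.2% higher in mKate2+ cells. Of 6 lymphocyte markers, 4 (Cd3e, Cd3d, Nkg7 and Ncr1) had 0 counts in all libraries and Cd79a was the highest, at up to 0.409 CPM. Among 9 endothelial markers Tie1 and Emcn had 0 counts throughout, 0 of 2 tested were called, and Flt1 was the most abundant, at 5.64, 12.4 and 192 CPM in astrocytes and 47.5 to 60.2 CPM in SB28 cells. That list summed to 200 CPM in astrocyte replicate 3, the library with the highest Cx3cl1 and Csf1, against 7.73 and 14.6 CPM in the other 2, and its part in those levels was not tested. Of 9 fibroblast and mural markers 4 were tested and 1, Col3a1, was higher in both SB28 populations (log2 fold change 1.90 and 1.45, or 2.54 and 2.09 without astrocyte replicate 3). Its call in mKate2+ cells was lost without astrocyte replicate 2 or mKate2+ replicate 3 (adjusted p = 0.0779 and 0.0715 in edgeR). The collagen gene Col1a2 was the most abundant of that list, at 838 to 1110 CPM in astrocytes and 386 to 590 CPM in SB28 cells. The 9 oligodendrocyte lineage markers summed to 847, 444 and 508 CPM in astrocytes and 17.1 to 27.1 CPM in SB28 cells, and 3 of 5 tested were lower in both SB28 populations, in which Pdgfra led the list at 8.20 to 13.9 CPM. Of 5 neuron markers Rbfox3 had 0 counts throughout, and of 3 tested Stmn2 was lower in both SB28 populations (11.4 to 43.4 CPM in astrocytes and 0.474 to 1.47 CPM in SB28 cells) and Tubb3 was higher in mKate2+ cells (1.12).

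The remaining chemokine genes were mostly at or near 0. Of 17 further CC chemokines, 5 (Ccl1, Ccl12, Ccl19, Ccl24 and Ccl26) had 0 counts in all libraries and 3 reached 1 CPM in any library. Ccl27a, a chemokine of epithelial cells, was at 5.15, 4.19 and 5.24 CPM in astrocytes and 1.03 to 1.40 CPM in SB28 cells (log2 fold change -1.91 and -1.88, adjusted p = 0.000520 and 0.00115 in edgeR), in counts that near-identical copies of the gene make uncertain. Ccl28, another epithelial chemokine, was called lower in mKate2+ cells (-1.13, adjusted p = 0.0411 in edgeR), where 22.8% of all genes tested were lower. Ccl28 passed the filter on low counts only through the astrocyte libraries, which set its direction. It lost that call in DESeq2 (adjusted p = 0.0673). In edgeR it lost the call without a filter, without mKate2+ replicate 1 or 3 and with replicate number as a block (adjusted p = 0.15, 0.125, 0.131 and 0.0907). Ccl25, which directs T cells to the gut, was the most abundant of this list, at 6.35 to 8.59 CPM in astrocytes and 6.94 to 10.6 CPM in SB28 cells, and overlaps Elavl1.

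Of 14 further CXC and XC chemokines, 2 were tested and both were lower in SB28 cells, where 22.4% and 22.8% of all genes tested were lower in mKate2- and mKate2+ cells. Both passed the filter on low counts only through the astrocyte libraries. Their direction was thus set by the filter, and the count cannot be compared with these shares. Cxcl10, an interferon-induced chemokine of T cells, was at 11.2, 2.75 and 7.37 CPM in astrocytes and at 0.0836 to 0.268 CPM in SB28 cells (log2 fold change -5.51 and -5.19, adjusted p = 0.000341 and 0.000369 in edgeR), or -6.14 in mKate2- cells without mKate2- replicate 3. Its counts are uncertain, because 133 of its exonic bases overlap Art3 on the opposite strand. Cxcl14, a chemokine of epithelia and brain, was at 24.7, 23.9 and 31.4 CPM in astrocytes and at 0.111 to 0.637 CPM in SB28 cells (-6.10 and -7.49, adjusted p = 1.43e-05 and 5.25e-06). Every astrocyte library exceeded every SB28 library for both genes, as for 21.7% of 28059 genes with any count. Cxcl15 was at 100 CPM in astrocyte replicate 3 and at 0.245 and 0.153 CPM in the other 2, and at most 0.878 CPM in SB28 cells.

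Growth factors and IL-6 relatives outside the 10 genes were present in both cell types. Of 6 further myeloid growth factors 4 were tested, and Mif was higher and Flt3l lower in both SB28 populations, where 33.9% and 35% of all genes tested were called in either direction. Mif, macrophage migration inhibitory factor, was at 113, 113 and 71.2 CPM in astrocytes, 213, 233 and 214 CPM in mKate2- and 215, 607 and 234 CPM in mKate2+ SB28 cells. Its log2 fold change was 1.16 in mKate2- cells (adjusted p = 0.00117 in edgeR) and 1.93 in mKate2+ cells (adjusted p = 0.00723), which became 1.23 without mKate2+ replicate 2, and in mKate2- cells it was 0.96 without astrocyte replicate 3 and 0.95 with the gene length trend removed. In mKate2+ replicate 2 genes shorter than 1 kb were 0.24 higher and genes longer than 6 kb 0.22 lower on the log2 scale than the mean of the 6 SB28 libraries (medians over genes), and the part of this trend in the level of Mif was not tested beyond that removal.

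Flt3l, a growth factor of dendritic cells, was at 3.61 to 4.25 CPM in astrocytes and 0.878 to 1.42 CPM in SB28 cells (log2 fold change -1.51 and -1.76), in counts shared in part with Gm45713. Il34, the second ligand of Csf1r, was at 125, 63.5 and 42.4 CPM in astrocytes and 44.9 to 48.8 CPM in SB28 cells and was not called (adjusted p = 0.114 and 0.141 in edgeR), in counts that may hold reads of the antisense genes Gm15894 and Gm15895. Of the IL-6 relatives, Il11, a cytokine of fibroblasts and haematopoiesis, was lower in mKate2- cells (-1.13, adjusted p = 0.00751) and was not called in mKate2+ cells (-0.68, adjusted p = 0.127). The difference between the populations itself was 0.45 for Il11 on the log2 scale (adjusted p = 0.923). Il11 was under the fold threshold without astrocyte replicate 1 (-0.91) or mKate2- replicate 3 (-0.93). Clcf1, the most abundant of these relatives, was at 76.5 to 119 CPM in astrocytes and 68.1 to 105 CPM in SB28 cells, in counts that are uncertain because 311 of its exonic bases overlap another gene on the same strand.

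To describe which genes followed the 4 that exceeded 1 CPM in every library, profiles of log2(CPM + 1), centred on their mean, were compared over the 9 libraries with 13431 genes. The measure is the root mean square difference, in log2 units, and it carries no test. Csf1 was most like Fbn1, which encodes the matrix protein fibrillin 1, and Ski, at differences of 0.068 and 0.071, compared with a spread of Csf1 itself of 0.30. Cxcl12 was most like Ctf1 (0.15 of 0.37), which encodes the IL-6 relative cardiotrophin 1, and Cx3cl1 was most like Tmem158 (0.16 of 0.46). Lif was most like A430027H14Rik (0.19 of 0.72), followed by the transcription factor gene Gata2 (0.21), which was at 39.7 CPM in astrocytes and at 14.4 and 14.8 CPM in mKate2- and mKate2+ SB28 cells (means of 3), and the growth factor gene Pdgfd (0.21).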

How the data were processed

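The authors trimmed reads with Trimmomatic 0.36, mapped them to GRCm38 with STAR 2.5.2b, counted uniquely assigned reads per gene with featureCounts of Subread 1.5.2 and deposited raw counts, without normalization. The annotation release and the use of strand are not given in the sources used here. The sort gates in the labels give CellTrace Violet to tumor cells, whereas the methods stain astrocytes, so libraries were taken by their names. GENCODE M21 gave names to 49056 of 49315 IDs. By its models Ackr1, Col3a1, Csf2rb, Csf2rb2, Ctf1, Cx3cr1, Itgam, Jak1, Olig1, P2ry12, Pdgfra and Zfp36l2 also share exonic bases with another gene, which makes their counts uncertain.

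Each comparison used its 6 libraries, genes above 1 CPM in at least 2 of them, TMM factors and edgeR 4.0.16's quasi-likelihood test (R 4.3.3), with Benjamini-Hochberg adjustment over all genes tested. A gene low in SB28 cells could pass this filter through the astrocyte libraries alone, which sets its direction in advance. Nothing in the labels says whether same-numbered libraries shared a co-culture, and P values measure the spread between 3 libraries a group. SB28 populations were called at an adjusted p below 0.05, and astrocyte comparisons also needed an absolute log2 fold change above 1. Alternatives were DESeq2 1.42.0, its size factors in edgeR, upper-quartile normalization, no filter, edgeR's less strict filter (filterByExpr), all 9 libraries in 1 fit, replicate number as a block, removal of a gene length trend (loess, span 0.3) and each library left out in turn. Procedures were tested on simulated data.

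The members and lists were chosen with earlier results of these data known. Named are all 10 genes and their receptors and, of each list, up to 3 called genes per direction with the largest fold change and the most abundant gene in each cell type. Exceptions chosen after their values were seen are Gfap, Olig1, Sox10, Cd68, P2ry12, Lyz2, Col3a1, Sparcl1, Gpr149, Il34, Il1b, Tnf and Adam17, and the subtraction of SB28 RNA from astrocyte libraries. Some listed genes are not reported here.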

Additional observations from a re-analysis of the deposited data

How the results depend on the processing

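Over the 5 genes tested in 3 comparisons, 193 of 210 alternative values kept their direction and their call, which against astrocytes needs both thresholds. The exception among calls was Lif in mKate2+ cells against astrocytes, at -0.92 on the log2 scale without astrocyte replicate 2, so that 0 rather than 1 of the genes was called lower there, and across the libraries left out Lif ranged from -1.67 to -0.92. The remaining 16 changed sign in values that passed no fold threshold. Taken alone, the adjusted p of 22 of the 210 values lay on the other side of 0.05, which left their calls as they were. In mKate2- cells these were 7 of Cxcl12 (0.0139 to 0.0473) and 3 of Csf1 (0.0616 to 0.105). In mKate2+ cells they were 5 of Cxcl12 and 5 of Csf1, and Cx3cl1 crossed in both populations without astrocyte replicate 3. For Cx3cl1 in mKate2- cells against astrocytes, the log2 fold change was -0.038 with upper-quartile normalization and -0.062 with the gene length trend removed, and from -0.27 to 0.73 with a library left out, and in mKate2+ cells it ranged from -0.14 to 0.85. Ccl2 in mKate2+ cells against astrocytes ranged from -0.39 to 0.12 with a library left out and was at -0.42 with the gene length trend removed. In mKate2+ against mKate2- cells, ranges that crossed 0 were -0.036 to 0.25 for Cxcl12, -0.015 to 0.24 for Cx3cl1, -0.027 to 0.10 for Csf1 and -0.071 to 0.22 for Lif. Of 1346 alternative values of the other called genes of the lists, 1312 kept their call, 34 lost it and 0 changed sign. Dividing CPM by exonic length moved Lif from rank 4 to rank 3 in astrocytes. The apparent astrocyte share of SB28 libraries depended on the minimum fold of its genes, with means of 1.20% in mKate2- and 1.04% in mKate2+ cells at 30 times (153 genes) and of 0.337% and 0.282% at 300 times, which rest on 1 gene. The same estimate of SB28 RNA in astrocyte libraries could give no value, since 0 genes passed at 30, 100 or 300 times. With at most 23 counts per library, Ccl5, Ccl7, Cxcl1, Csf2 and Il6 are limited by depth.

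With replicate number as a block, counts of genes called were 1593 higher and 2969 lower in mKate2- cells and 1632 higher and 2966 lower in mKate2+ cells against astrocytes, and 0 and 0 between SB28 populations, with Lif at -1.41 in mKate2- and -1.31 in mKate2+ cells, and no call on the 10 genes differed. The block ended the calls on Ccl28 (adjusted p = 0.0907) and Lifr (adjusted p = 0.0537) in mKate2+ cells. Same-numbered libraries did not share deviations in every pair (correlations of -0.030, 0.11 and 0.275 between SB28 populations, 0.0553, 0.0464 and 0.0237 of mKate2- with astrocyte and -0.147, 0.0651 and 0.25 of mKate2+ with astrocyte libraries), and not every library correlated best with its own number.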

Other observations

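Among 7 genes of cytokines that induce chemokines in other cells, 2 were tested and both were lower in SB28 cells, where 22.4% and 22.8% of all genes tested were lower in mKate2- and mKate2+ cells. Il18 passed the filter on low counts only through the astrocyte libraries, and Il33 had means of 0.874 and 0.853 CPM in the SB28 populations. The filter thus favoured this direction, and the count cannot be compared with these shares. Il33, an alarmin of astrocytes and oligodendrocytes, was at 4.70, 7.0 and 157 CPM in astrocytes and at 0.127 to 1.93 CPM in SB28 cells, with a log2 fold change of -5.98 in mKate2- and -5.99 in mKate2+ cells (adjusted p = 0.00850 and 0.0145 in edgeR). Without astrocyte replicate 3 these were -2.74 and -2.76, without mKate2+ replicate 3 the second was -7.40, and without mKate2+ replicate 2 its adjusted p was 0.0518. Il18, which is activated by inflammasomes, was at 5.48, 4.01 and 3.05 CPM in astrocytes and at 0.502 to 1.04 CPM in SB28 cells (-2.41 and -2.42, adjusted p = 0.00123 and 0.00103). Il1b and Tnf, known inducers of Ccl2, Cxcl1 and Il6 in glia, had a count in astrocyte replicate 2 alone, at 0.0306 CPM each.

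Of 10 genes that release or cleave the chemokines and cytokines, 8 were tested and 1 was called, lower in both SB28 populations, where 33.9% and 35% of all genes tested were called and 22.4% and 22.8% were lower. Timp3, which encodes an inhibitor of the sheddases Adam10 and Adam17, was at 631, 1028 and 655 CPM in astrocytes and at 2.52 to 8.71 CPM in SB28 cells (log2 fold change -7.06 and -7.52, adjusted p = 1.00e-05 and 7.88e-06 in edgeR), in counts that are uncertain where it overlaps Syn3. Adam10, a sheddase of Cx3cl1, was at 261 to 382 CPM in astrocytes and 212 to 269 CPM in SB28 cells, a log2 fold change of -0.42 and -0.38 that did not pass the fold threshold. Adam17 was at 70.2 to 93.7 CPM in astrocytes and 62.3 to 86.1 CPM in SB28 cells, with log2 fold changes of 0.03 and -0.06, in counts that are uncertain because 311 of its exonic bases overlap Iah1.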
